A study of Sus scrofa with 3 samples.

Results

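The genes described here are 10 genes of B cells and of the lymphoid follicles in which B cells gather, measured in minipig lung on an Affymetrix porcine expression array. They were chosen by name: every probe set whose platform annotation gave 1 gene symbol, and that symbol was CXCL13, CCL19, LTB, CD79B, SPIB, BLNK, CD40, EAF2, TNFRSF17 or JCHAIN. That rule found 13 probe sets for the 10 genes, out of 23935 probe sets and 6765 named genes on the array. The choice drew on earlier results of the same 3 arrays, so the differences from sham given below describe these arrays and are not tested.

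The 3 arrays hold RNA from an operated lung and a non-operated lung of the lung ischemia-reperfusion model, and from the lung of a sham minipig. In this surgical model blood flow through the left pulmonary artery is blocked transiently and then restored, without involving the bronchus, so that the left lung loses its arterial flow but goes on being ventilated. The operated lung is the left one and the non-operated lung is the right one. Animals were kept in specific pathogen-free housing. The sources used here do not give age, sex, the lengths of occlusion and reperfusion, the side sampled in the sham animal or any pooling of RNA. They also do not say if the operated and the non-operated lung belonged to 1 animal. Each group is 1 array, so no value has a replicate error, no difference has a p-value, and an animal, its procedure and its array cannot be told apart.

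In lymphoid tissue, stromal cells of the follicle secrete CXCL13, which draws in B cells through the receptor CXCR5, while CCL19 draws T cells and dendritic cells through CCR7. Lymphocytes carry lymphotoxin, whose beta chain is encoded by LTB, and lymphotoxin signalling to the stroma keeps these chemokines switched on. B cells sense antigen through a receptor that signals by CD79B and the adaptor BLNK, receive T cell help through CD40, and depend on the transcription factor SPIB. Those that mature into plasma cells carry the survival receptor TNFRSF17 (BCMA) and make the J chain, encoded by JCHAIN, which joins IgA and IgM into polymers. In the lung, such follicles lie along the airways as bronchus-associated lymphoid tissue, and IgA plasma cells lie under the airway lining.

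The signals of all 10 genes were lower in the operated lung and in the non-operated lung than in the sham lung. Of all named genes counted, 57.7% were below sham by any amount in the operated lung and 56.6% in the non-operated lung. The follicle chemokine CXCL13, lymphotoxin beta, the B cell receptor chain CD79B and the B cell factor SPIB had gaps above 8-fold in both lungs, and JCHAIN had the narrowest, below 2-fold in both. Between the operated and the non-operated lung, 0 of the 8 members that could be compared differed by 2-fold. CD79B and SPIB were too dim in both lungs to be compared. Few named genes differed by as much in that comparison, with 0.182% lower and 0.0607% higher in the operated lung. A gene is called lower or higher here when its signals differ at least 2-fold, that is by 1 on the log2 scale. Each array's median signal, near 7.31 in both lungs of the injury model and 7.33 in sham on the log2 scale, served as a floor below which a signal was not read as a level.

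On that scale 8 of the 10 members were lower in the operated lung than in sham and 0 were higher, where 8.79% of the 5097 named genes counted were lower and 8.65% were higher. In the non-operated lung 9 of 10 were lower and 0 higher, beside 8.55% lower and 8.96% higher among 5113 genes. The median log2 difference over the members was -2.22 for the operated lung and -2.55 for the non-operated lung, and over all counted genes it was -0.11 and -0.10. These contrasts were used in choosing the members, so nothing is read from the gap between the members and the background. Both comparisons also use the same sham array, and their values are given side by side only.

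**Figure D1:**
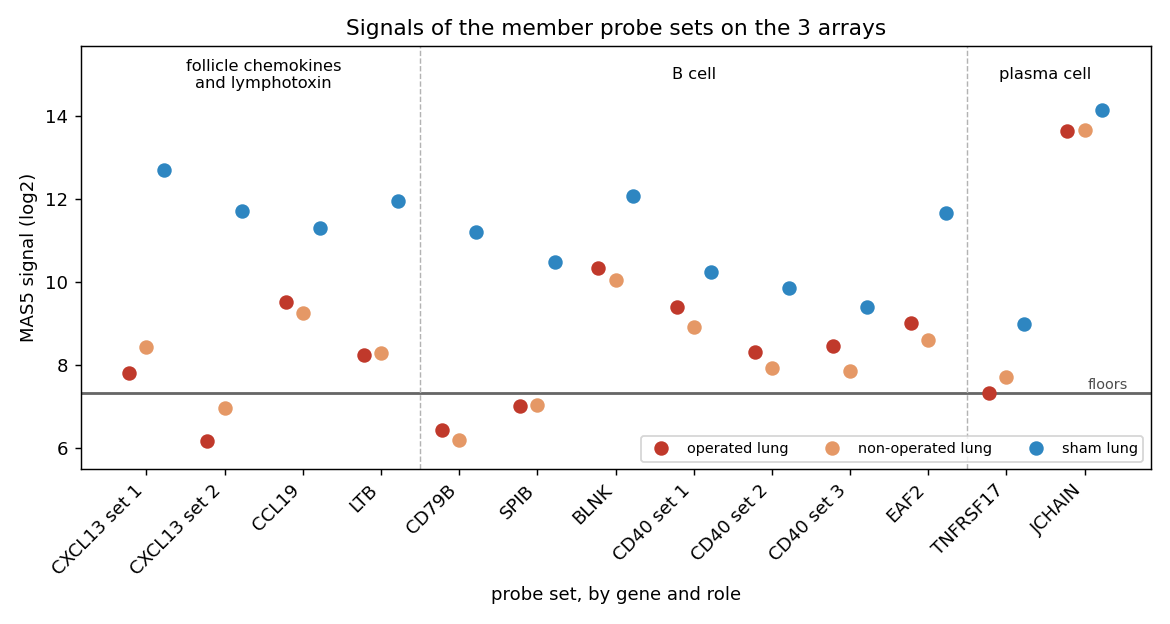
MAS5 signal on the log2 scale (y axis) of each of the 13 member probe sets (x axis, grouped by role) on the operated, non-operated and sham lung arrays, 1 point per array, with the floors as a grey line. In every probe set the sham point is the highest, while the points of the other arrays lie close together and, for CD79B, SPIB and the second CXCL13 probe set, under the floor.

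CXCL13 was read by a pair of probe sets. The brighter one had a log2 signal of 7.81 in the operated lung, 8.43 in the non-operated lung and 12.72 in the sham lung. Against sham this is 30.0-fold lower in the operated lung and 19.4-fold lower in the non-operated lung. Ranked with the genes measured in both lungs compared, it was the lowest difference of 4555 genes in the operated lung and of 4559 in the non-operated lung. The second CXCL13 probe set had 6.17 in the operated lung and 6.97 in the non-operated lung, both under the floor, and 11.71 in sham, which makes it at least 21.1-fold lower in either lung. Sham was the highest array in both probe sets.

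LTB encodes the membrane anchor of the lymphotoxin heterotrimer. Its log2 signal was 8.25 in the operated lung, 8.30 in the non-operated lung and 11.96 in the sham lung. It was 13.1-fold lower in the operated lung and 12.7-fold lower in the non-operated lung than in sham, the third lowest difference among measured genes in each. CCL19, the ligand of CCR7, had 9.52 in the operated lung, 9.27 in the non-operated lung and 11.30 in sham. Its difference was smaller, 3.45-fold lower in the operated and 4.10-fold lower in the non-operated lung. The 3 follicle chemokine and lymphotoxin genes had a median log2 difference of -3.71 in the operated lung and -3.67 in the non-operated lung.

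Of the B cell genes, CD79B, the beta chain through which the B cell receptor signals, was above the floor only in sham. Its log2 signal was 6.44 in the operated lung, 6.19 in the non-operated lung and 11.22 in the sham lung. Set at the floor, its gap to sham was no smaller than 14.98-fold for the operated lung and 14.99-fold for the non-operated lung. SPIB, an ETS family transcription factor of B cells and plasmacytoid dendritic cells, had 7.02 in the operated lung, 7.03 in the non-operated lung and 10.48 in sham. It was at least 8.98-fold lower in each lung, and for both genes the order of the lungs under the floor carries no information.

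EAF2, an elongation factor partner that is abundant in germinal centre B cells, stayed above the floor on all 3 arrays. Its log2 signal was 9.02 in the operated lung, 8.61 in the non-operated lung and 11.67 in the sham lung, which is 6.26-fold and 8.34-fold lower than sham in the operated and the non-operated lung. BLNK links the B cell receptor's kinases to calcium signalling and is also made by macrophages. It had 10.33 in the operated lung, 10.06 in the non-operated lung and 12.07 in sham, that is 3.33-fold lower in the operated and 4.01-fold lower in the non-operated lung.

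CD40, the receptor for T cell help, is carried by B cells, dendritic cells, macrophages and some endothelium, and was read by 3 probe sets. The brightest had a log2 signal of 9.40 in the operated lung, 8.93 in the non-operated lung and 10.25 in the sham lung. Its difference from sham was -0.85 in the operated lung, short of 2-fold, and -1.32 in the non-operated lung. The other probe sets gave -1.55 and -0.95 in the operated lung and -1.94 and -1.56 in the non-operated lung. All 3 probe sets were therefore beyond 2-fold in the non-operated lung and 1 of 3 in the operated lung, and with the mean of the probe sets the operated lung was at -1.11. The 5 B cell genes had a median log2 difference of -2.65 in the operated lung and -3.06 in the non-operated lung, with CD79B and SPIB at their bounds.

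Of the plasma cell genes, JCHAIN was closer to sham than any other member, while TNFRSF17 was beyond 2-fold in both lungs. TNFRSF17, the receptor through which plasma cells receive the survival cytokines APRIL and BAFF, had a log2 signal of 7.33 in the operated lung, 7.71 in the non-operated lung and 8.98 in the sham lung. It was 3.15-fold lower in the operated lung, where its signal lay at the edge of the floor, and 2.41-fold lower in the non-operated lung. With a pseudocount of 100 in place of the floor, its difference in the non-operated lung was -0.97, short of 2-fold. JCHAIN had 13.64 in the operated lung, 13.66 in the non-operated lung and 14.15 in sham. Its signal was 1.42-fold lower in the operated lung and 1.405-fold lower in the non-operated lung.

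The difference of JCHAIN from sham was common on these arrays: 25.6% of measured genes had one as low or lower in the operated lung and 25.8% in the non-operated lung. JCHAIN also lay near the top of each array, at the 99.5th percentile of probe sets in the operated lung, the 99.4th in the non-operated lung and the 99.7th in sham. Whether signals so near the top of the range were compressed was not tested. After quantile normalization its log2 difference was -0.28 in the operated and -0.34 in the non-operated lung.

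**Figure D2:**
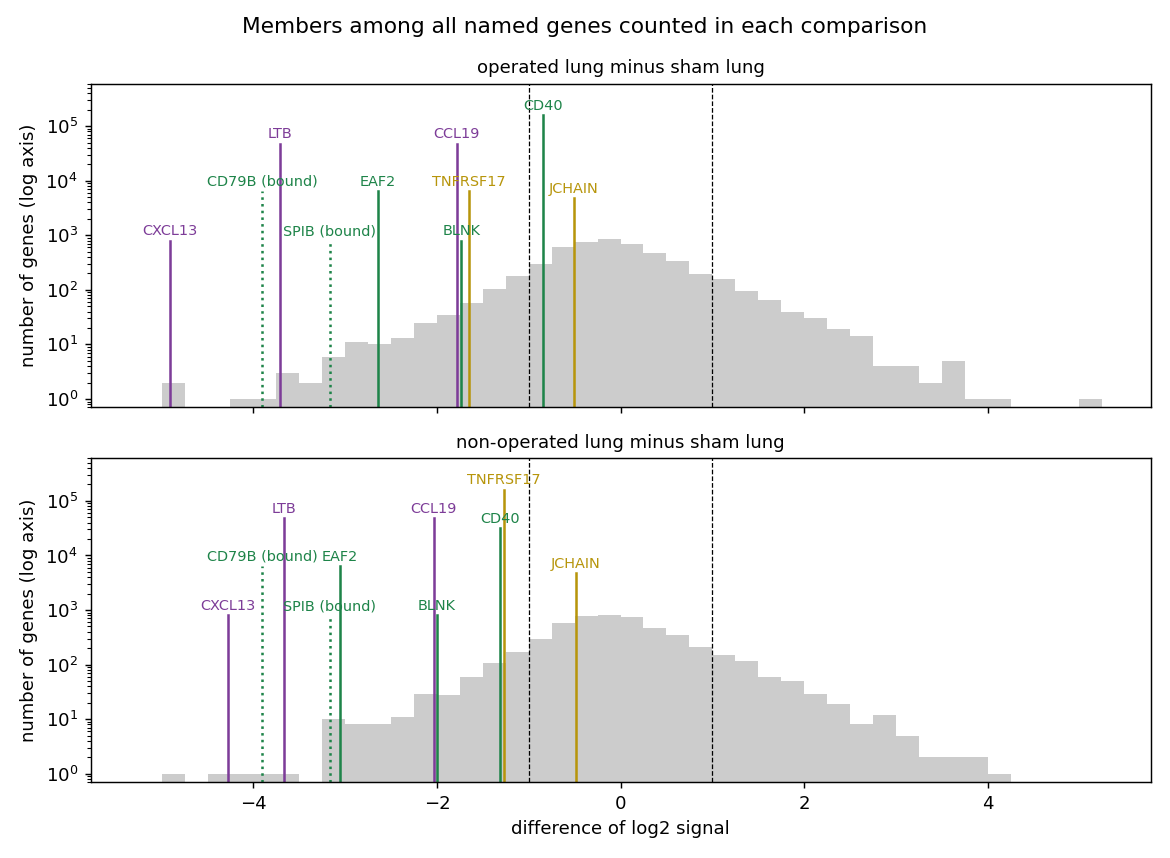
Number of named genes (y axis, log scale) by difference of log2 signal (x axis) for the operated lung minus sham (top) and the non-operated lung minus sham (bottom), with dashed lines at 2-fold and a labelled line for each member (purple for follicle chemokines and lymphotoxin, green for B cell and yellow for plasma cell genes, dotted where the value is a bound). The heights of the member lines only separate the labels. CXCL13, LTB, CD79B, SPIB and EAF2 stand in the thin left tail of both panels, and JCHAIN stands inside the bulk of genes.

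The operated and the non-operated lung were close to each other. Of the members, 8 lay above the floor in at least 1 of these lungs, and 0 of 8 differed by 2-fold, where 0.182% of 4944 named genes were lower in the operated than in the non-operated lung and 0.0607% were higher. The middle 95% of all genes measured in both lungs ran from -0.55 to 0.49 on the log2 scale. CXCL13 was lower in the operated lung, at -0.63, just outside that range, and its second probe set was under the floor in both lungs. TNFRSF17 was at -0.38, LTB at -0.05 and JCHAIN at -0.02.

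The B cell genes that could be compared lay on the other side of 0 in the same comparison. CD79B and SPIB were under the floor in both lungs. EAF2 was at 0.41, BLNK at 0.27 and the brightest CD40 probe set at 0.47 in the operated minus the non-operated lung, and the other CD40 probe sets were at 0.39 and, just outside the middle 95%, 0.62. CCL19 was at 0.25. With 1 array a side, differences of this size cannot be set against the spread between repeat samples.

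**Figure D3:**
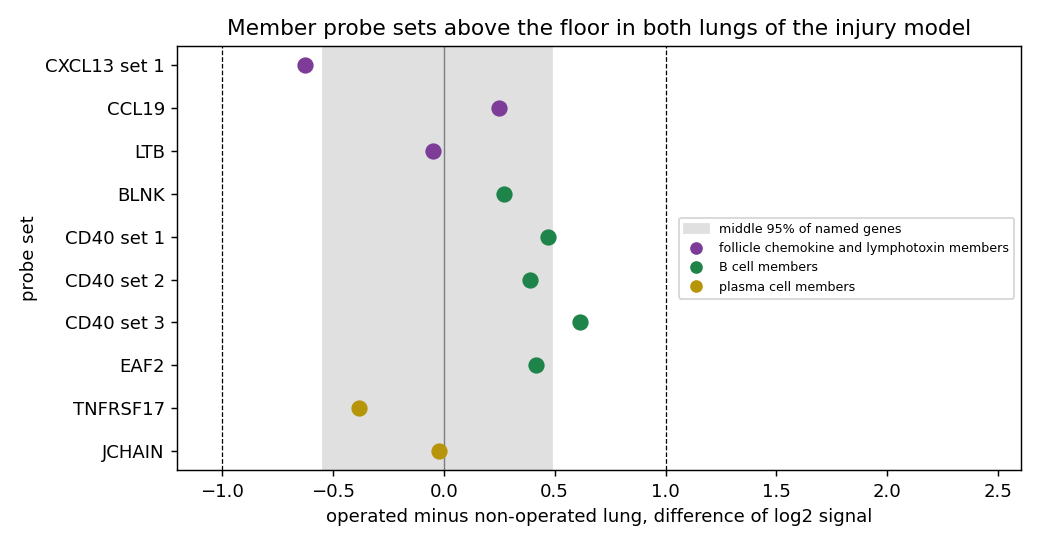
Difference of log2 signal between the operated and the non-operated lung (x axis) for the 10 member probe sets above the floor in both (y axis), coloured by role, with the middle 95% of all named genes in grey and dashed lines at 2-fold. The points run from -0.63 for CXCL13 to 0.62 for the third CD40 probe set, all inside the 2-fold lines.

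Other B cell genes could be followed only in part, because the platform annotation used here names few of them. Of 8 defining markers of B cells, plasma cells and follicle chemokines or their receptors, 2 had a singly named probe set, XBP1 and CCL21. CD79A, MS4A1, PRDM1, IRF4 and CXCR5 were among those with none and were not analysed here. In bulk tissue, fewer cells of a type and less RNA per cell cannot be told apart, which holds for every gene described.

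Of 38 other B cell genes listed, 12 had a named probe set and 9 passed the floor. In the operated lung 5 of the 9 were lower than sham and 0 higher, with a median log2 difference of -1.05, and in the non-operated lung 5 were lower and 0 higher, with a median of -1.18. The share of all counted genes that were lower was 8.79% in the operated and 8.55% in the non-operated lung, as above. BTK, the kinase whose loss stops B cell development in humans, was lower by the widest measured margin. Its log2 signal was 8.96 in the operated lung, 8.89 in the non-operated lung and 10.84 in sham, that is -1.88 and -1.95 against sham. PIK3AP1, the adaptor that ties the B cell receptor to phosphoinositide 3-kinase, was at -1.16 in the operated and -1.40 in the non-operated lung.

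IRF8, a transcription factor of B cells and dendritic cells, was at -1.32 in the operated and -1.44 in the non-operated lung, and the exchange factor VAV1 at -1.05 and -1.18. BCL11A, a transcription factor needed for early B cells, was above the floor only in sham, with a log2 difference of -1.497 or lower in the operated and -1.498 or lower in the non-operated lung. The 4 genes within 2-fold in both lungs were LYN, CD83, CD81 and SPI1. Other leukocytes carry these, and also genes of the list that were lower, among them BTK, VAV1 and IRF8. SPI1, the PU.1 factor of myeloid and B cells, was at 0.13 in the operated lung and 0.36 in the non-operated lung.

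Of 19 germinal centre genes, 5 were named on the array and 2 passed the floor. SH2D1A, a signalling adaptor of T cells that follicular helper cells depend on, was above the floor only in sham, at 9.27, and its log2 difference was -1.96 or lower in each lung. LMO2, a transcription cofactor of germinal centre B cells and of endothelium, had 10.49 in the operated lung, 10.56 in the non-operated lung and 11.54 in sham. Its differences were -1.04 in the operated and -0.97 in the non-operated lung, on either side of 2-fold. CD27, CD40LG and IL21 were under the floor on every array.

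Genes of antibody secretion were mostly within 2-fold of sham, as were most named genes. As above, 8.79% of counted genes were lower and 8.65% higher in the operated lung, and 8.55% and 8.96% in the non-operated lung. Of 24 antibody secretion genes listed, 13 were named. The listed immunoglobulin genes, MZB1, DERL3 and POU2AF1 were not among the named ones. In the operated lung comparison 10 genes passed the floor and in the non-operated lung comparison 11, with 0 lower and 0 higher in either. IL6 had only a bound in the non-operated lung comparison. With the mean of all probe sets 1 gene was lower in the operated lung, and with no floor 1 was lower in each lung and 1 was higher in the non-operated lung. The median log2 difference was -0.37 in the operated and -0.15 in the non-operated lung. XBP1, the factor that expands the secretory apparatus of plasma cells and of other secretory cells, had 12.20 in the operated lung, 12.23 in the non-operated lung and 12.26 in sham. Its difference was -0.06 in the operated and -0.03 in the non-operated lung. SSR4, a subunit of the translocon-associated complex, had the lowest difference of the list, at -0.86 in the operated and -0.75 in the non-operated lung. PIGR, the receptor that carries the J chain-containing antibodies across epithelium, was at -0.18 in the operated and -0.23 in the non-operated lung.

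Among 34 genes of lymphoid stroma and homing, 18 were named and 15 passed the floor. In the operated lung 7 were lower and 1 higher than sham, with a median of -0.69, and in the non-operated lung 7 were lower and 2 higher, with a median of -0.57. CR1, a complement receptor that holds immune complexes on follicular dendritic cells and B cells, had 11.26 in the operated lung, 10.94 in the non-operated lung and 13.11 in sham. Its differences were -1.85 in the operated and -2.17 in the non-operated lung. CXCL12, the stromal chemokine of CXCR4, was at -2.05 in the operated and -1.89 in the non-operated lung.

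Other listed genes that follicular dendritic cells are known to make did not share 1 direction. MFGE8 was at 0.09 in the operated and -0.10 in the non-operated lung, and PDPN, described below, was above sham in both. CLU, which encodes clusterin, was at -1.91 in the operated and -1.51 in the non-operated lung, complement C4A at -2.24 and -1.46, and the adhesion molecule VCAM1 at -1.63 and -1.67. All of them are also made by epithelium, liver or endothelium. LY86, which encodes the partner of CD180, a relative of the Toll-like receptors on B cells and myeloid cells, had a log2 difference of -2.34 or lower in the operated lung and -1.94 in the non-operated lung. MADCAM1, the addressin of mucosal lymphoid venules, was above the floor only in sham, at 8.41, and at least 2.14-fold lower in each lung.

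TNFSF13 and PDPN did not share that direction. TNFSF13, which encodes APRIL, a ligand of TNFRSF17, was higher than sham, with 9.96 in the operated lung, 9.99 in the non-operated lung and 7.84 in sham. Its log2 difference was 2.13 in the operated and 2.15 in the non-operated lung from the brighter of its probe sets. That call rests on 1 probe set: with the mean of both, TNFSF13 was 0.55 or more above sham in the operated lung and under the floor in the non-operated lung and sham. PDPN, a gene of lymphoid stroma, lymphatic vessels and alveolar type 1 cells, was at 0.84 in the operated and 1.10 in the non-operated lung. CCL21, the other ligand of CCR7, was barely above the floor in sham, at 7.52, and under it in both lungs, so that its difference could be bounded only at -0.21.

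**Figure D4:**
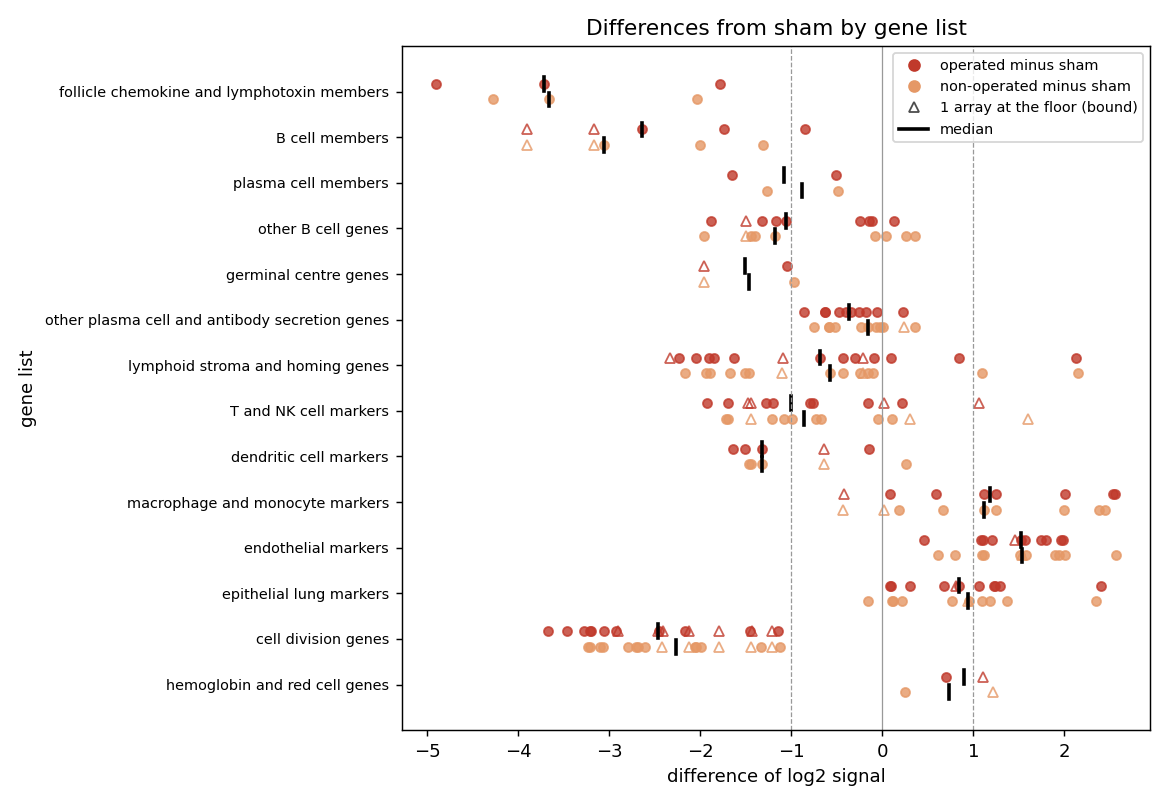
Difference of log2 signal from sham (x axis) of each gene that passed the floor, by gene list (y axis), for the operated lung (red) and the non-operated lung (orange), with open triangles where 1 array was at the floor and black bars for medians. The medians of the follicle, B cell, plasma cell, germinal centre, stroma, T and NK cell, dendritic cell and cell division lists lie left of 0. That of the antibody secretion list lies left of 0 but nearer to it. The medians of the macrophage, endothelial, epithelial and hemoglobin lists lie right of 0.

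Lists of other cell markers and of cell division genes also differed from sham, some in the members' direction and some in the other. Their part in the members' differences was not tested. Of 18 cell division genes that passed the floor, 18 were lower in the operated lung and 18 in the non-operated lung, with medians of -2.46 and -2.27. TOP2A, the topoisomerase of dividing cells, was at -3.67 in the operated and -3.23 in the non-operated lung. The summed linear signal of that list was 7802 in the operated lung, 8785 in the non-operated lung and 41609 in the sham lung. For the 10 members the sum was 16911 in the operated lung, 16601 in the non-operated lung and 44519 in sham. JCHAIN carried most of it in the operated and the non-operated lung, and without JCHAIN the sum was 4123 in the operated lung, 3638 in the non-operated lung and 26312 in sham.

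T and NK cell markers were lower for 6 of 12 genes in the operated lung and 5 of 12 in the non-operated lung, with 1 higher in each, GNLY of cytotoxic granules, and their medians were -0.9998 and -0.86. LCK, the kinase of the T cell receptor, was at -1.93 in the operated and -1.70 in the non-operated lung, and CD3G at -1.69 and -1.72. CD4 was at or under the floor on every array. Of 5 dendritic cell markers, 3 were lower in each lung, with a median of -1.32 in both. These were FSCN1, CD86 and IRF8, of which IRF8 is also on the B cell list. The summed signal of the T and NK cell markers above the floor was 7102 in the operated lung, 8067 in the non-operated lung and 10676 in sham.

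The medians of the macrophage list and of resident lung cell lists were on the other side of 0. Of the macrophage and monocyte markers, 5 of 8 were higher than sham in the operated lung and 5 of 9 in the non-operated lung, with medians of 1.18 and 1.12. Of 11 endothelial markers, 10 were higher in the operated and 9 in the non-operated lung, with medians of 1.53 and 1.54. Of 11 epithelial markers, 5 were higher in the operated and 4 in the non-operated lung, with medians of 0.84 and 0.94. With the floor used, 0 genes of these lists were called lower, but CD5L of the macrophage list was above the floor only in sham, at 7.74, and has only a bound of -0.43. With no floor, 2 macrophage markers were lower in the operated and 3 in the non-operated lung. The type 2 cell gene SFTPC, which marks the tissue as lung, had 14.52 in the operated lung, 14.56 in the non-operated lung and 14.44 in sham. HBB, the only listed hemoglobin gene above the floor, was at 0.69 in the operated and 0.25 in the non-operated lung. The Y chromosome gene EIF1AY, chosen after its values were seen, had 10.89 in the operated lung, 10.68 in the non-operated lung and 0.69, under the floor, in sham. The sources used here do not give sex. A difference of sex between the sham animal and the source of the other lungs was not tested. It could not be told apart from the procedure in any comparison with sham.

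Among 4386 genes above the floor on all 3 arrays, those nearest to a member were found by the Euclidean distance between log2 signals over the 3 arrays, each gene centred on its own mean. The nearest to CXCL13 were the chemokine CXCL14 at 0.63, LTB at 0.84 and TOP2A at 0.94, and 4 genes in all lay within a distance of 1. The nearest to LTB were TOP2A at 0.34, CXCL14 at 0.349 and SERPINI1 at 0.351, with 23 genes within 1. CXCL14 had a log2 signal of 8.39 in the operated lung, 8.32 in the non-operated lung and 12.46 in sham. JCHAIN had 3711 genes within the same distance, and its nearest were IDH3B, RPL10A and RPL38, each at about 0.01. With 3 arrays, this measure describes little more than the size of the gap to sham.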

How the data were processed

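Per the labels' protocols, TRIZOL was used for extraction and a 3' in vitro transcription kit for amplification and biotin labelling of the RNA put on the porcine arrays. The deposited table holds 1 log2 value per probe set and array, the scale being read from the values. They come from MAS5, per the submitters' processing notes. The sources used here name neither its version nor its scaling target. The mean linear signal after trimming 2% from each end was 497.2 in the operated lung, 497.0 in the non-operated lung and 496.4 in sham, so no further scaling was applied. No detection calls were used.

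Of 23999 probe sets, 64 reporter controls were left out. The platform annotation gave 1 gene for 10069 probe sets, several for 198 and none for 13668. By gene identifier, 9961 probe sets, and all 10 members, matched RefSeq's table for Sscrofa11.1. The probe set with the highest mean log2 signal stood for a gene. A gene was counted when above the floor, each array's median, on at least 1 of the arrays compared. Values under the floor were set to it, which makes the difference a bound. The code was tested on simulated data with Python 3.11.15, numpy 2.4.6 and pandas 2.3.3. With 1 array per group, the number of arrays limits the precision.

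Members and the 14 lists were chosen with earlier results of these data known. All members were named. Other B cell, germinal centre, plasma cell and stroma genes were named when 2-fold apart from sham in either lung with all probe sets above the floor on the same side, as were defining markers, and up to 4 genes came from each other list. LYN, CD83, CD81, SPI1, SSR4, PIGR, MFGE8, CD5L, IL6, SFTPC, HBB, CD4, GNLY, CD27, CD40LG, IL21 and EIF1AY were chosen after their values were seen. The closing section gives the 8 alternatives tried. Motifs in promoters were not analysed here.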

Additional observations from a re-analysis of the deposited data

How the results depend on the processing

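The alternatives were centring on the median, quantile normalization, no floor, floors at the 25th or 75th percentile, a pseudocount of 100, the mean of all probe sets and a 4-fold call. The 4-fold call changes no difference. Under the other 7, each member counted had a log2 difference from sham below 0 in both lungs, though not always by 2-fold. TNFRSF17 was not counted at the 75th percentile floor. A value is said to move by over 0.26 on the log2 scale, the SD of operated minus non-operated differences over genes, or, for a count or share, by over 1.5 times. Of the values for members as a group, their roles and all genes 30 moved and 150 did not, and all 30 are given. Of those for single members and other lists 153 moved and 796 did not, and only some are given. With a 4-fold call, 5 members were lower in the operated lung and 7 in the non-operated lung. Of all genes 1.45% were then lower and 1.63% higher in the operated lung. The shares were 1.39% and 1.6% in the non-operated lung, and 0% and 0% between the lungs. At the 75th percentile floor, which lifts the low arrays and drops dim genes, the members' median was -1.79 in the operated and -2.004 in the non-operated lung. The follicle genes had -2.74 and -2.74, the B cell genes -1.73 and -1.99 and the plasma cell genes, then JCHAIN alone, -0.51 and -0.49. Between the lungs the follicle genes had 0.25, and 0.034% of all genes were higher. With the pseudocount, which shrinks low values, the follicle genes had -3.34 in the operated and -3.30 in the non-operated lung, and the B cell genes -2.72 in the non-operated lung. Of all genes 5.48% were then lower and 5.29% higher in the operated lung, 5.37% and 5.81% in the non-operated lung, and 0.0739% lower between the lungs. Between the lungs, 4.72% of all genes were lower and 3.41% higher with no floor, 1.02% and 0.764% at the 25th percentile floor, and 0.135% higher with the mean of all probe sets. The 75th percentile floor also gave the operated lung's log2 differences nearest to 0, as bounds, for CXCL13 at -3.49, LTB at -2.74, CD79B at -1.99 and SPIB at -1.25. Among the other lists it left 1 T and NK cell marker, 1 dendritic cell marker and 10 cell division genes lower in the operated lung. The stroma list's operated lung median was -1.74 with no floor, and its count of higher genes in the operated lung was 0 with the mean of all probe sets. No paired analysis was possible because each group is 1 array. Signals near the floor, as for TNFRSF17, limit what can be read.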

Other observations

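The chromosomal neighbours of the members, taken as the nearest protein-coding genes in the RefSeq table of Sscrofa11.1 and chosen after the members' values were seen, did not all share the members' differences. TNF and AIF1, which lie within 2 genes of LTB in the MHC region, had log2 differences of -0.30 and 0.59 in the operated lung and -0.25 and 0.67 in the non-operated lung. LTA, the partner chain of lymphotoxin beta, was under the floor on all 3 arrays. All 4 measured neighbours of CXCL13, which are CCNI, CCNG2, CNOT6L and MRPL1, lay between -0.71 and -0.36 in the operated lung and between -0.57 and -0.19 in the non-operated lung. CCNJ, a neighbour of BLNK, was higher than sham, at 1.48 in the operated and 1.08 in the non-operated lung.

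SLC15A2, a peptide transporter gene next to EAF2, was lower by about as much as EAF2. It had a log2 signal of 7.88 in the operated lung, 7.76 in the non-operated lung and 10.82 in sham, and was 7.69-fold lower in the operated and 8.36-fold lower in the non-operated lung. GOLGB1, on the other side of EAF2, was at 0.28 in the operated and 0.17 in the non-operated lung. Near JCHAIN, AMBN was at -1.18 in the operated and -1.47 in the non-operated lung and UTP3 at -0.74 and -0.82, farther from sham than JCHAIN, while RUFY3 was at -0.08 and 0.12. Near TNFRSF17, CPPED1 was at -1.28 in the operated and -1.46 in the non-operated lung and RSL1D1 at -0.67 and -0.48.

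Many probe sets with gaps as wide as those of the members have no single gene name. Of 13038 probe sets counted in the operated lung comparison, 40 were at least 8-fold lower than sham, and 22 of these carried no single gene name. In the non-operated lung comparison 35 of 13041 were that much lower, of which 17 carried none.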
